A study of Mus musculus with 4 samples.

Results

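The genes described here encode collagen chains and the enzymes and helpers that modify, fold, trim and cross-link them. They were chosen by name, as every gene with a probe set of 1 annotated symbol of the form Col, digits, a, digits, together with P4ha1, P4ha2, Plod1, Plod2, Plod3, Serpinh1, Lox, Loxl1, Loxl2, Pcolce and Bmp1. This gave 46 genes of the 12393 that have such a probe set, 36 of them collagen chains and 10 of them modifying genes. Loxl2 was not among them. For each gene the brightest probe set by mean intensity stands for it, with its other tested probe sets given beside it or in a figure. Most other probe sets too dim to test are not given. Those of Col1a1, Bmp1 and Lox were below background on all 4 arrays. Expression was measured in the atrioventricular (AV) junction and, as the tissue it was set against, in the ventricular region of wild-type C57BL/6 mouse hearts between embryonic days 10.5 and 11.0. Each tissue was microdissected and pooled from about 80 hearts, and each was read on 2 Affymetrix MOE430A arrays (1a and 1b) after amplification of 230 ng of AV RNA and 250 ng of ventricular RNA. No transgene, deletion or treatment is given for either region. The arrays of a region carry the same replicate number, so their spread may be that of repeated readings of 1 pool, and the p-values measure only that spread. Intensities are MAS5 values scaled to a trimmed mean of 500 on every array, means are given ± SD over n = 2 arrays, and log2 folds are the AV junction over the ventricular region from a limma fit of log2(intensity + 50), so that they understate the change of dim genes.

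Collagens are secreted proteins whose chains wind around each other in a triple helix. Fibril-forming collagens (types I, II, III, V and XI) build the cables of connective tissue, type VI builds beaded filaments, type IX sits on the surface of fibrils, and type IV forms the sheet that underlies epithelium, endothelium and muscle cells. Before secretion, hydroxylases modify the prolines and lysines of the chains, and the chaperone Hsp47 (the product of Serpinh1) binds the folded helix. After secretion, proteinases remove the end pieces and lysyl oxidases cross-link the fibrils. At this stage of heart development mesenchyme invades the matrix of the AV cushions, the forerunners of valves and septa, while the ventricles grow as trabeculated muscle.

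The AV tissue carried markers of cushion mesenchyme and the ventricular tissue those of chamber muscle. Of 8 mesenchyme markers, 5 were higher in the AV junction, and their summed intensity was 4034 to 5544 on the AV arrays, against 1059 to 1244 on the ventricular arrays. Of 6 markers of ventricular muscle, 5 were lower in the AV junction. Genes of other tissues moved with region too. All 3 tested genes of a liver and yolk sac list were higher in the AV junction, with the 5 measured genes summing to 6458 to 6950 on the AV arrays, against 258 to 350 on the ventricular arrays, and 4 of 5 erythroid genes were lower. Of 5 epicardial genes 0 passed in limma, and 1 (Upk3b) had an unadjusted p under 0.05. Of 6 cartilage and tendon genes, 5 (Matn1, Matn4, Cnmd, Scx and Tnmd) were below background on all 4 arrays. Of 7 endothelial markers, 2 (Tek and Nfatc1) were higher in the AV junction and 2 (Pecam1 and Tie1) were below background on every array. Emcn went the other way, at a log2 fold of −0.71 that did not pass (limma, adjusted p = 0.0730). Cdh5 and Kdr, at 0.22 and 0.16, did not pass. Background is the brightest Bacillus subtilis control of an array, which read 52.6 to 58.6 on the AV arrays, against 97.9 to 104 on the ventricular arrays. The 3'/5' ratio of actin, which rises as transcripts shorten, was 21.7 and 23.4 on the AV arrays, against 16.6 and 21.7 on the ventricular arrays. That of Gapdh was 16.3 and 15.0 on the AV arrays, against 17.4 and 18.4 on the ventricular arrays, lower in the AV junction without overlap. The part of these differences in the collagen results was not tested, and in pooled tissue fewer cells of a type and less RNA per cell cannot be told apart.

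Chains of the fibril-forming, fibril-associated and beaded filament collagens made up most of the collagen genes that were higher in the AV junction, and the lower ones were the anchoring fibril chain Col7a1 and the basement membrane chain Col4a1. Of the 46 genes, 33 reached a mean intensity of 100 and were tested, and 13 did not. With a threshold of 0.05 on limma's p, adjusted over all probe sets tested (Benjamini-Hochberg), 9 of the 33 were higher in the AV junction, against 8.47% of all genes tested, and 2 were lower, against 6.56% of all genes tested. In either direction 11 of 33 passed, against 15.0% of all genes tested. The higher ones were Col9a3, Col9a1, Col6a2, Col3a1, Col5a2, Col1a2, Col18a1, Col5a1 and Pcolce, and the lower ones Col7a1 and Col4a1. With any 1 array left out, 7 to 9 were higher and 0 to 1 lower. The median log2 fold was 0.34 over the 33 genes and −0.057 over the 8410 genes tested. Col9a3, Col11a1 and P4ha1 reached the minimum through the AV mean alone, so counts and medians over tested genes describe those genes only. In Col11a1 and P4ha1 ventricular array 1a was the brightest of the 4 arrays, and ventricular array 1b was below background. For 24 of the 33 the arrays of the regions did not overlap, which held for 62.4% of all genes tested. Lack of overlap is thus common with 2 arrays a region, and where it is given below it is no test. Median scaling over all probe sets, dim ones included, moves the median of all genes by 0.16 and gave 12 higher and 1 lower (92.3% of the calls higher, where the scaling used here gave 81.8%). Over all genes 80.8% of the calls were then higher, where the scaling used here gave 56.3%.

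**Figure D1:**
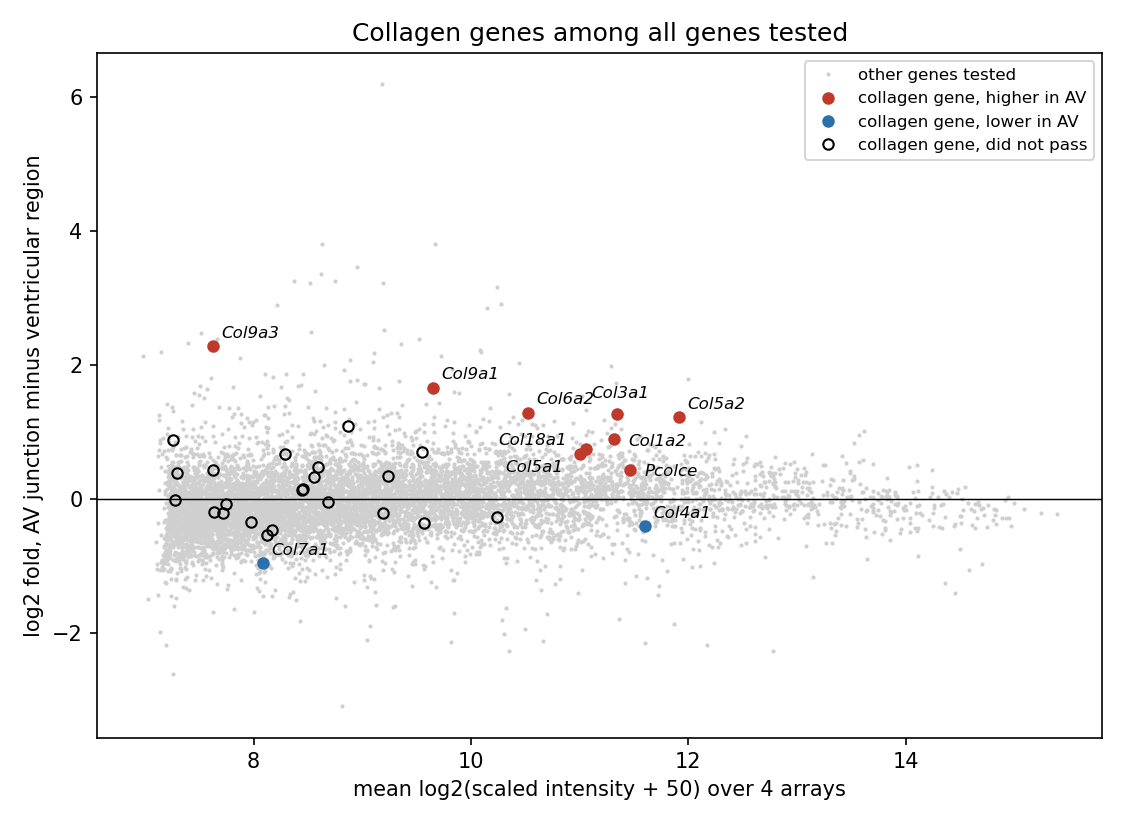
Log2 fold (AV junction minus ventricular region) against the mean log2 of scaled intensity plus 50 over 4 arrays for all 8410 genes tested, 1 point per gene. Filled red and blue points are collagen genes higher (9) and lower (2) in the AV junction, open circles are the 22 collagen genes that did not pass. The 9 higher genes spread over log2 folds of 0.43 to 2.28, the last a fitted value for Col9a3, whose ventricular arrays lay below background.

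**Figure D2:**
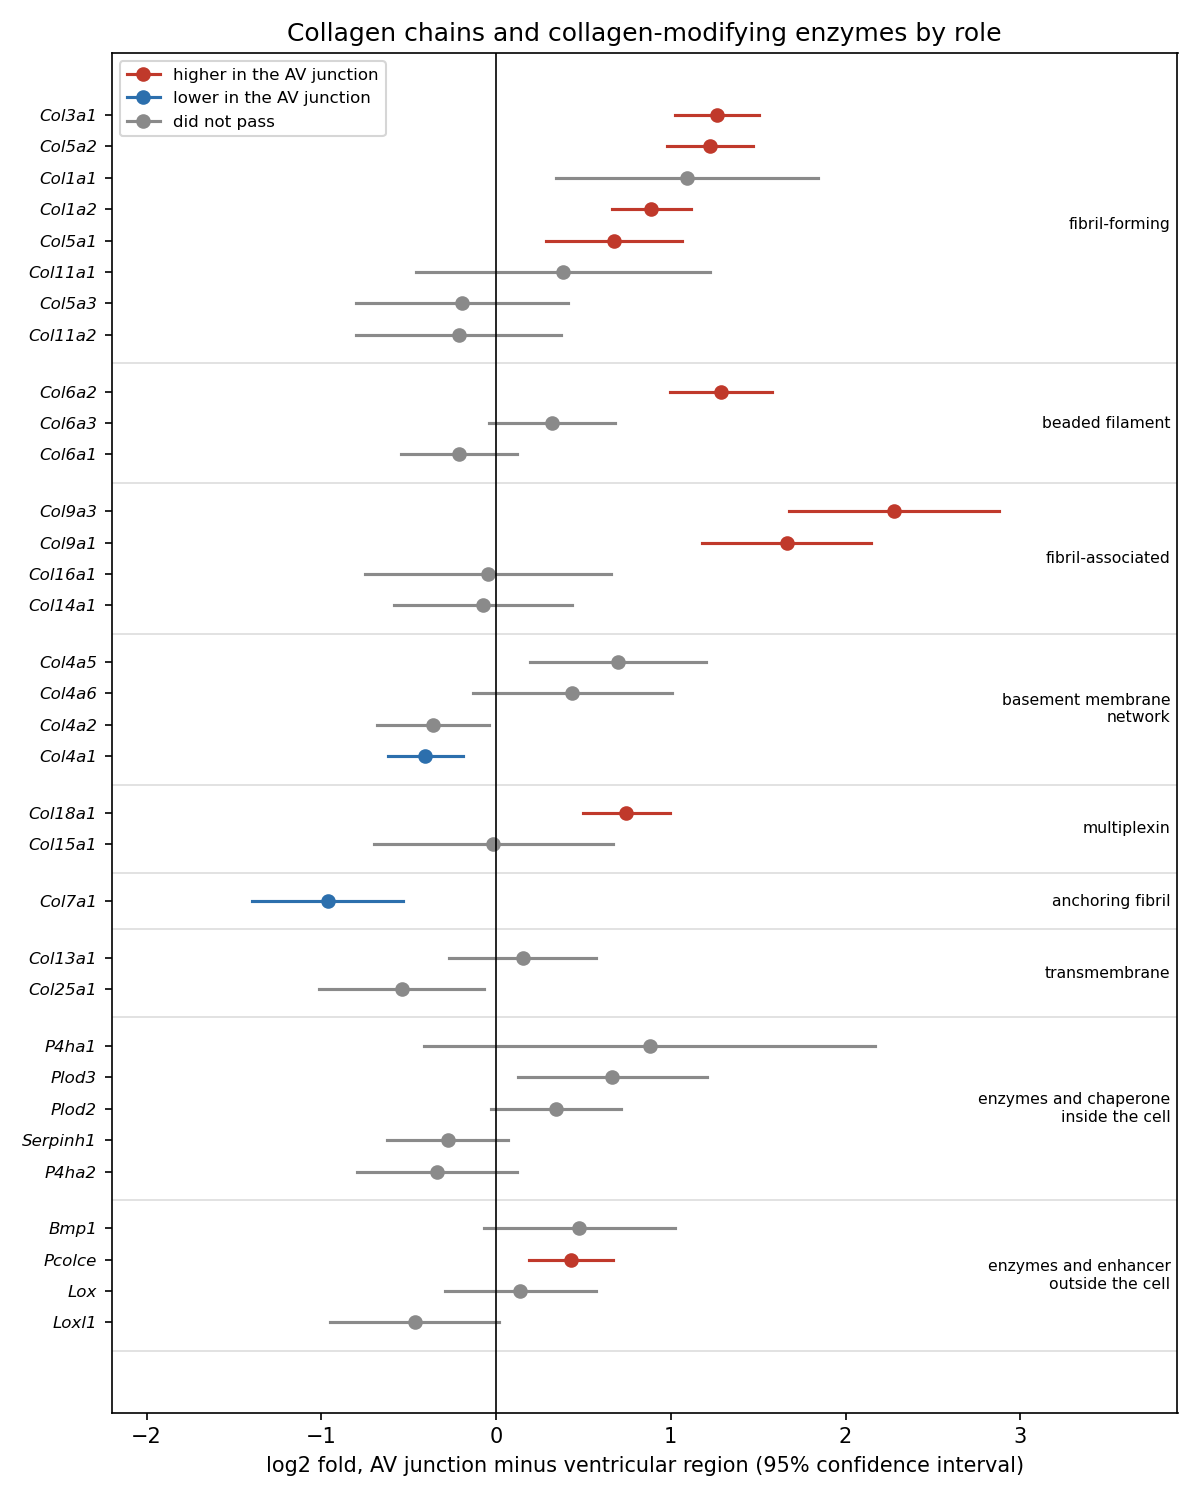
Log2 folds (AV junction minus ventricular region) of the 33 tested collagen genes with 95% confidence intervals from the limma fit, grouped by role. Red marks genes higher and blue genes lower in the AV junction after adjustment, and grey marks genes that did not pass; within type IV and type VI the chains lie on both sides of 0.

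Chains of the fibril-forming collagens of types I, III and V were higher in the AV junction. Of 9 measured, 8 were tested and 4 of these passed, each higher in the AV junction, where 8.47% of all genes tested were higher. The other 4 did not pass, and the median log2 fold over the 8 was 0.78. Col3a1, the chain of type III collagen of pliable tissues, read 4202 and 3746 on the AV arrays, against 1654 and 1594 on the ventricular arrays. Col5a2, a chain of the type V collagen that sets fibril width, read 5684 and 6024 on the AV arrays, against 2660 and 2305 on the ventricular arrays. Col1a2, the second chain of type I collagen, read 3342 and 3508 on the AV arrays, against 1775 and 1877 on the ventricular arrays. In all 3 genes both AV arrays lay above both ventricular arrays. AV arrays averaged 3974 ± 322 for Col3a1, against 1624 ± 42.5 for ventricular arrays. For Col5a2 the AV mean was 5854 ± 241, against a ventricular mean of 2483 ± 250, and for Col1a2 the AV mean was 3425 ± 117, against a ventricular mean of 1826 ± 72.8. Col3a1 was 2.40-fold higher (log2 fold 1.26, SE 0.10, adjusted p = 0.000638), Col5a2 2.34-fold (1.22, 95% interval 0.98 to 1.47, adjusted p = 0.000783) and Col1a2 1.85-fold (0.89, 95% interval 0.66 to 1.11, adjusted p = 0.00193). Each passed with any 1 array left out (adjusted p up to 0.0181). Their second probe sets passed too, with log2 folds of 1.33 for Col3a1, 0.71 for Col5a2 and 0.84 for Col1a2.

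The stretches before the start sites of the type III and type I chains are shown because both genes were higher on both of their probe sets. Each holds the 120 bases before the RefSeq start in GRCm38.p6, 5′ to 3′ on the gene's strand, with motif letters in capitals. The capitals mark TATAAA in Col3a1, 117 bases before the start, and the CCAAT box in Col1a2, 109 bases before it. Col5a2 has no entry in the promoter table.
Col3a1 (chr1:45311418-45311537, plus strand): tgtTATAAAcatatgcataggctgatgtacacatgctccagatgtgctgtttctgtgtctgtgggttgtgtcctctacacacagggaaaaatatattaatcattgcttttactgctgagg
Col1a2 (chr6:4505498-4505617, plus strand): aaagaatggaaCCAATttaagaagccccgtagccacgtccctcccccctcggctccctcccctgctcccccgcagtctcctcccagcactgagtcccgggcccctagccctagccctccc

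The partner chains Col5a1 and Col1a1 had the same sign with wider spread. Col5a1, the other main chain of type V collagen, read 2119 and 3045 on the AV arrays, against 1637 and 1512 on the ventricular arrays. The AV arrays stood far apart, and the lower one was nearer to the ventricular arrays than to its replicate. Its log2 fold was 0.67 (95% interval 0.29 to 1.06, adjusted p = 0.0376), and it passed without AV array 1a but not without any other array (adjusted p up to 0.146) or with quantile normalisation. Col1a1, the main chain of type I collagen, read 908 and 437 on the AV arrays, against 216 and 335 on the ventricular arrays, a log2 fold of 1.09 that did not pass (0.34 to 1.84, adjusted p = 0.0632). Its AV arrays differed from each other by more than its dimmer AV array did from the ventricular ones. Leaving out AV array 1a gave 0.61, and leaving out AV array 1b gave 1.58, which passed. The interval of Col1a1 includes the log2 fold of Col1a2, and the difference between the chains was not tested.

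The other fibril-forming chains tested, Col11a1, Col11a2 and Col5a3, did not pass. Col11a1 read 134 and 124 on the AV arrays, against 145 and 46.3 on the ventricular arrays, and its partner Col11a2 read 187 and 110 on the AV arrays, against 175 and 178 on the ventricular arrays. Col5a3, a minor type V chain, read 160 and 114 on the AV arrays, against 131 and 198 on the ventricular arrays. The regions overlapped in all of these, with log2 folds of 0.38, −0.22 and −0.19 that fell short of the threshold. Col2a1, the main collagen of cartilage, had a mean of 94.4, just below the minimum for testing. It read 114 and 148 on the AV arrays, both above background, against 33.2 and 82.2 on the ventricular arrays, both below, at least 1.29-fold higher.

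**Figure D3:**
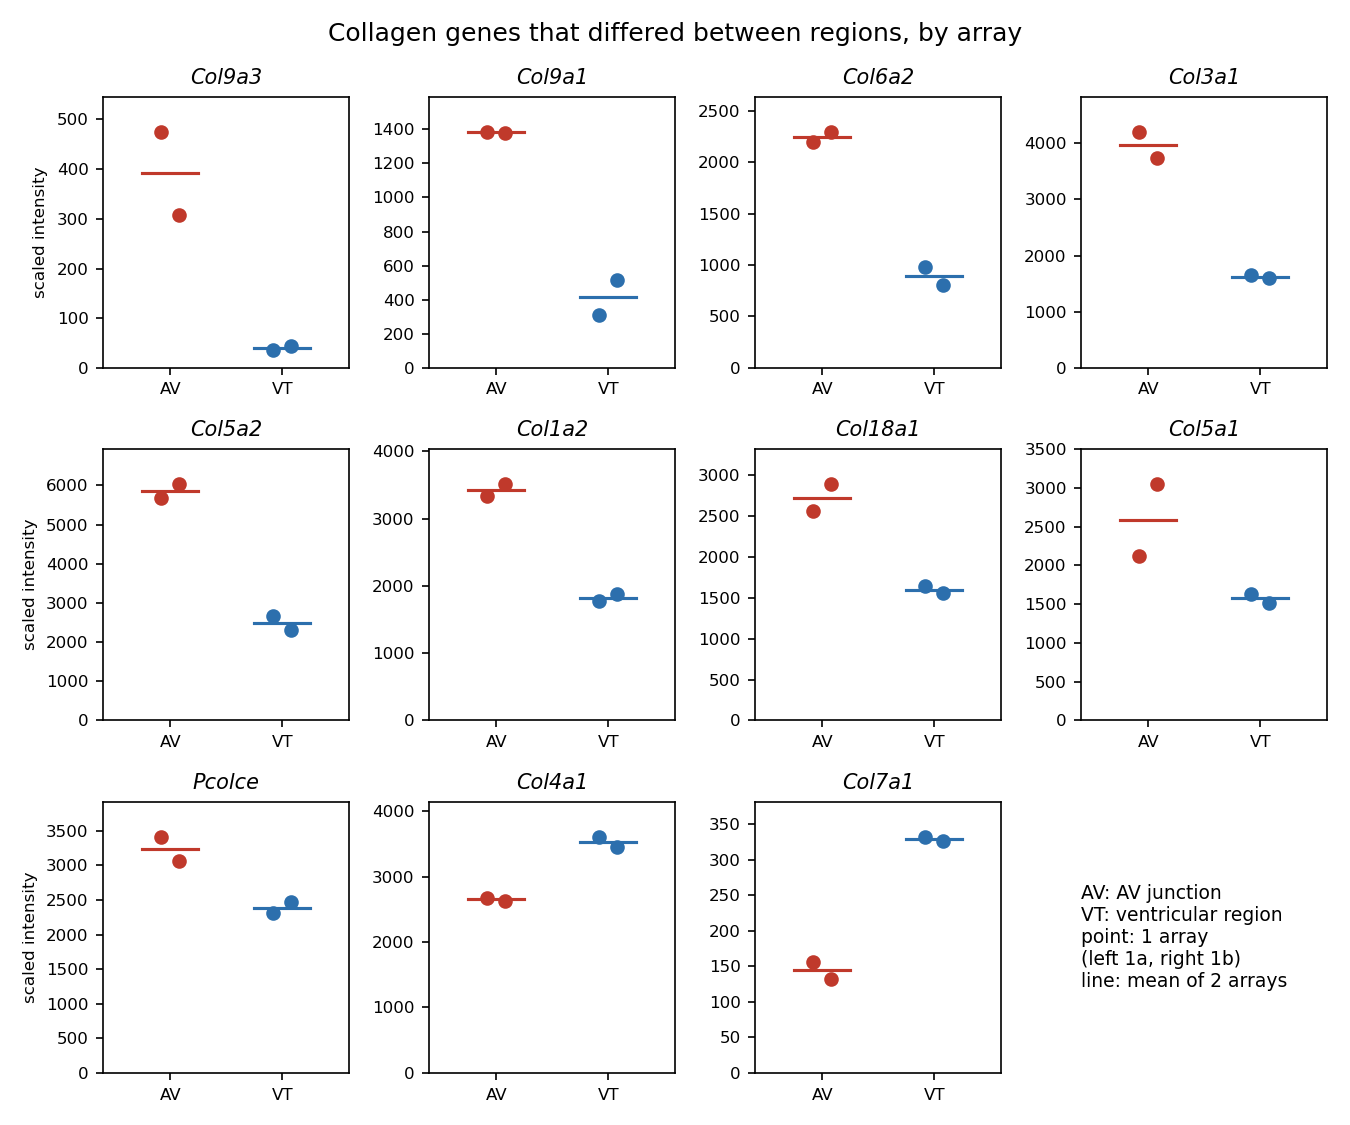
Scaled intensity on each of the 4 arrays for the 11 collagen genes that passed, AV junction (AV, red) left of ventricular region (VT, blue), with a line at the mean of 2 arrays; axes start at 0 and differ between panels. In every panel the arrays of the regions are apart, by the widest ratio in Col9a3 (475 and 308 on the AV arrays, against 35.5 and 43.6 on the ventricular arrays) and by narrow margins in Pcolce and Col4a1.

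The chains of type VI collagen, which assemble into 1 molecule, had log2 folds of both signs. Col6a2 read 2201 and 2294 on the AV arrays, against 985 and 806 on the ventricular arrays. Col6a1 read 483 and 499 on the AV arrays, against 532 and 625 on the ventricular arrays. Col6a3 read 361 and 378 on the AV arrays, against 286 and 286 on the ventricular arrays. The AV arrays were higher in Col6a2 and Col6a3 and lower in Col6a1, with no overlap in any, as in 62.4% of all genes tested. The AV mean of Col6a2 was 2248 ± 66.0, against a ventricular mean of 895 ± 126. It was 2.44-fold higher (log2 fold 1.29, 95% interval 1.00 to 1.58, adjusted p = 0.00122) and passed with any 1 array left out. Neither Col6a1 (−0.21, interval −0.54 to 0.12, adjusted p = 0.341) nor Col6a3 (0.32, interval −0.039 to 0.68, adjusted p = 0.200) passed. The interval of Col6a2 overlaps neither of the others, but the difference itself was not tested. A second probe set of Col6a2, whose name ends in _x_at (probes that can also match other transcripts), read 457 and 612 on the AV arrays, against 829 and 409 on the ventricular arrays, and gave −0.13 (adjusted p = 0.783). The mean of both Col6a2 probe sets gave 0.58 and did not pass.

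Chains of type IX collagen, which lies on cartilage-type fibrils, had the largest log2 folds among the collagen genes tested. Of 9 fibril-associated chains measured, 4 were tested, of which 2 passed, both higher in the AV junction. Over all genes tested 8.47% were higher. Col9a1 read 1385 and 1380 on the AV arrays, against 310 and 518 on the ventricular arrays. Col9a3 read 475 and 308 on the AV arrays, against 35.5 and 43.6 on the ventricular arrays, which lay below background. Col9a3 reached the minimum for testing through the AV junction alone, so it was tested only because it was bright there. Its call thus adds no support to the count above. The AV arrays of both genes were above every ventricular array. The AV mean of Col9a1 was 1383 ± 3.31, against a ventricular mean of 414 ± 148. It was 3.17-fold higher (log2 fold 1.66, 95% interval 1.18 to 2.15, limma, adjusted p = 0.00342). With any 1 array left out the log2 fold of Col9a1 ran from 1.33 to 1.99. Col9a3 was at least 3.79-fold higher. Its adjusted p of 0.00235 in limma is no support, since its AV brightness alone brought it into the test. The remaining chain, Col9a2, read 2.68 to 3.69 on the AV arrays, against 2.35 to 4.02 on the ventricular arrays, below background throughout.

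Other probe sets of these genes differed. The second of Col9a1 read 200 and 39.6 on the AV arrays, against 195 and 152 on the ventricular arrays, a log2 fold of −0.57 that did not pass (adjusted p = 0.417), and the mean of both gave 0.55 and did not pass. A second probe set of Col9a3 was below the minimum for testing but showed the same order, with 218 and 123 on the AV arrays, against 36.5 and 14.4 on the ventricular arrays. Another read 17.1 and 52.0 on the AV arrays, against 35.5 and 38.9 on the ventricular arrays, below background on all 4. Col9a1 has 2 annotated starts, 17593 bases apart. They are shown because the probe sets of this gene disagreed, although the probes were not placed on the transcripts here. Capitals mark the CCAAT box 18 bases before the second start, and no searched motif falls in the stretch before the first.
Col9a1 first start (chr1:24177490-24177609, plus strand): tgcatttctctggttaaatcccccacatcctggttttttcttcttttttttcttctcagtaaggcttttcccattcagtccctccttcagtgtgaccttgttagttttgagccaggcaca
Col9a1 second start (chr1:24195083-24195202, plus strand): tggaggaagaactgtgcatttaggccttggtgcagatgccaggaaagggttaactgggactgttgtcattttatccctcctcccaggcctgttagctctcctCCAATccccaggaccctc

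The remaining fibril-associated chains showed no difference that passed. Col16a1 read 244 and 511 on the AV arrays, against 316 and 429 on the ventricular arrays, and Col14a1 read 142 and 176 on the AV arrays, against 185 and 156 on the ventricular arrays. In both genes the regions overlapped (log2 folds −0.046 and −0.075), and the sign turned with quantile normalisation and with median scaling over all probe sets. Col22a1 read 104 and 67.7 on the AV arrays, against 19.8 and 26.8 on the ventricular arrays, above background in the AV junction only. Background was higher on the ventricular arrays (97.9 to 104), where a reading of 67.7 would not exceed it. The mean of 54.6 kept Col22a1 out of the test. Col12a1 was below background on all 4 arrays. Col19a1 and Col20a1 were also too dim to test.

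Among the basement membrane chains of type IV collagen, Col4a1 was lower in the AV junction. Of 6 measured, 4 were tested, of which 1 passed, where 15.0% of all genes tested passed in either direction. Col4a1, which with Col4a2 makes the form found under most cells, read 2674 and 2630 on the AV arrays, against 3605 and 3450 on the ventricular arrays. Col4a2 read 563 and 678 on the AV arrays, against 835 and 780 on the ventricular arrays. Both were lower on every AV array. Col4a1 had a log2 fold of −0.40 (95% interval −0.62 to −0.19, adjusted p = 0.0287) and Col4a2 one of −0.36 that did not pass (−0.68 to −0.038, adjusted p = 0.125). Col4a1 did not pass with any 1 array left out (adjusted p up to 0.135), and median scaling over all probe sets gave −0.25 (adjusted p = 0.153). Its second probe set gave −0.59 and did not pass (adjusted p = 0.320).

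The X-linked chains Col4a5 and Col4a6, of a more restricted form of type IV, had the opposite sign. Col4a5 read 1000 and 817 on the AV arrays, against 683 and 422 on the ventricular arrays, and Col4a6 read 208 and 155 on the AV arrays, against 139 and 102 on the ventricular arrays. The AV arrays were the higher ones in both. Neither passed, at log2 folds of 0.70 for Col4a5 (95% interval 0.19 to 1.20, adjusted p = 0.0723) and 0.44 for Col4a6 (−0.13 to 1.00, adjusted p = 0.258). Col4a5 passed without ventricular array 1a and with median scaling over all probe sets (adjusted p = 0.0287). Second probe sets gave 0.19 and −0.087. The intervals of Col4a1 and Col4a5 do not overlap, but the difference was not tested. Col4a3 and Col4a4, the chains of kidney and lung membranes, were too dim to test, and Col4a4 was below background on all 4 arrays.

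Col18a1, a basement membrane proteoglycan whose end fragment is endostatin, was higher in the AV junction. It read 2554 and 2884 on the AV arrays, against 1642 and 1557 on the ventricular arrays, with no overlap. Its log2 fold was 0.75 (95% interval 0.50 to 0.99, adjusted p = 0.00587), it passed with any 1 array left out (adjusted p up to 0.0397), and its second probe set gave 0.57 (adjusted p = 0.0217). Without a trend in the variance it did not pass. On the same arrays the liver and yolk sac genes Afp and Ttr were higher in the AV junction (at least 48.8-fold and at least 12.0-fold), and liver is a known site of Col18a1 expression; the part of such tissue in the result was not tested. The gene has 2 annotated starts 52825 bases apart, which the arrays do not tell apart as used here, and the 120 bases before each are shown for a basement membrane gene that was higher. Capitals mark GC boxes (CCGCCC, the reverse complement of GGGCGG) at 61, 43 and 33 bases before the upstream start, and none lies before the downstream one.
Col18a1 downstream start (chr10:77113706-77113825, minus strand): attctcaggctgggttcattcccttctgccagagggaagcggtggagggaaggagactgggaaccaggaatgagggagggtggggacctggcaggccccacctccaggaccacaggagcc
Col18a1 upstream start (chr10:77166531-77166650, minus strand): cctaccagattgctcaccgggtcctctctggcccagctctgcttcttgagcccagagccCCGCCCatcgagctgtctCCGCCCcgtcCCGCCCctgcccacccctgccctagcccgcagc

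Col7a1, the chain of the fibrils that anchor epithelia, was lower in the AV junction. It read 156 and 133 on the AV arrays, against 332 and 326 on the ventricular arrays, all above background. The log2 fold was −0.96 (95% interval −1.39 to −0.53, adjusted p = 0.0160). It passed without AV array 1a but not without any other array (adjusted p up to 0.0835), nor without the filter on dim probe sets. The gene has 1 probe set. Col15a1, the relative of Col18a1, read 76.4 and 137 on the AV arrays, against 92.9 and 120 on the ventricular arrays, and did not pass (log2 fold −0.017, adjusted p = 0.974). Of the transmembrane collagens, Col13a1 read 314 and 323 on the AV arrays, against 245 and 323 on the ventricular arrays. Col25a1 read 210 and 155 on the AV arrays, against 305 and 267 on the ventricular arrays, lower without overlap. Neither passed, at 0.15 and −0.54 (adjusted p = 0.597 and 0.118), and Col17a1 was below background throughout.

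Genes for the folding and hydroxylation of the chains inside the cell did not differ beyond the threshold. Of 6 measured, 5 were tested and 0 passed in limma, at log2 folds from −0.34 to 0.88, and 1 (Plod3) had an unadjusted p under 0.05. Over all genes tested 15.0% passed in either direction. Serpinh1, the collagen chaperone, read 907 and 1202 on the AV arrays, against 1239 and 1316 on the ventricular arrays. Its log2 fold was −0.28 (95% interval −0.62 to 0.067), and its second probe set gave 0.041. Plod3, a lysyl hydroxylase that also adds sugars, read 318 and 372 on the AV arrays, against 254 and 152 on the ventricular arrays (log2 fold 0.67, adjusted p = 0.0992, or 0.0372 with median scaling over all probe sets). Plod2, the hydroxylase of the cross-linking ends, read 638 and 617 on the AV arrays, against 556 and 421 on the ventricular arrays (0.34, adjusted p = 0.187), and its second probe set gave −0.17. On the brightest probe sets both were higher on every AV array. P4ha2, a proline hydroxylase subunit, read 157 and 193 on the AV arrays, against 237 and 230 on the ventricular arrays (−0.34, adjusted p = 0.273). P4ha1, the other such subunit, turned on 1 array. It read 166 and 149 on the AV arrays, against 168 and 8.38 on the ventricular arrays, the last below that array's background of 104. Its log2 fold was 0.88 (adjusted p = 0.312), or −0.072 without ventricular array 1b. Its second probe set had the opposite sign, with 66.3 and 102 on the AV arrays, against 163 and 88.9 on the ventricular arrays (−0.37, adjusted p = 0.448). Plod1 was too dim to test.

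Of the genes that act outside the cell, Pcolce was higher in the AV junction and the proteinase and lysyl oxidases did not pass. Pcolce, which speeds the removal of the C-terminal end piece, read 3411 and 3062 on the AV arrays, against 2306 and 2467 on the ventricular arrays. The regions did not overlap, and the log2 fold was 0.43 (95% interval 0.19 to 0.67, adjusted p = 0.0340). The call was lost with any 1 array left out (adjusted p up to 0.150) and with quantile normalisation, and the second, dimmer probe set gave 0.074. Bmp1, the proteinase that Pcolce assists, read 523 and 312 on the AV arrays, against 300 and 256 on the ventricular arrays (0.48, adjusted p = 0.209). Lox, a cross-linking oxidase, read 346 and 286 on the AV arrays, against 250 and 317 on the ventricular arrays (0.14, adjusted p = 0.640). Loxl1, its relative, read 230 and 165 on the AV arrays, against 315 and 265 on the ventricular arrays (−0.47, adjusted p = 0.172). Bmp1 and Loxl1 did not overlap between regions (62.4% of all genes tested did not), in opposite directions, and Lox did.

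Among other genes of collagen biosynthesis, processing and binding, Sec24d, Sec23a and Fmod were higher in the AV junction and Ddr1 was lower. Of 27 measured, 22 were tested and 4 of them passed, where 15.0% of all genes tested passed in either direction. The median log2 fold of the 22 was 0.071. Sec24d and Sec23a, coat proteins of the vesicles that carry procollagen out of the endoplasmic reticulum, were among the higher ones. Sec24d read 1422 and 1529 on the AV arrays, against 999 and 798 on the ventricular arrays (log2 fold 0.69, adjusted p = 0.0173). Sec23a read 1681 and 1391 on the AV arrays, against 1039 and 1011 on the ventricular arrays (0.55, adjusted p = 0.0281). Both serve secretion in general, and with 1 array left out their adjusted p reached 0.0817 and 0.112. Fmod, a small proteoglycan of fibrils, read 1084 and 882 on the AV arrays, against 601 and 533 on the ventricular arrays. That brightest probe set gave 0.74 (limma, adjusted p = 0.0175), a call lost without AV array 1a or either ventricular array. The next brightest gave 0.67 and passed (adjusted p = 0.0374). The other tested Fmod probe sets ran from 0.44 to −0.11 and did not pass. The brightest without an ending of _x_at or _s_at gave −0.11. Without ventricular array 1b 0 of the list were higher in limma, and without any other array 1 to 2 were.

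The receptor Ddr1, a tyrosine kinase that binds collagen, had the largest difference of that list, in the other direction. It read 632 and 527 on the AV arrays, against 2969 and 2091 on the ventricular arrays (log2 fold −2.02, 95% interval −2.43 to −1.60, adjusted p = 0.000889) and passed with any 1 array left out. That probe set ends in _x_at, and no other tested Ddr1 probe set passed. The next brightest, also ending in _x_at, read 1216 and 830 on the AV arrays, against 1166 and 1154 on the ventricular arrays. It gave −0.20 (adjusted p = 0.470), and the brightest without such an ending gave −0.39 (adjusted p = 0.144). Only the dimmest one tested had the opposite sign, at 0.16. The related Ddr2 read 85.1 and 383 on the AV arrays, against 253 and 175 on the ventricular arrays, and did not pass. P4hb, the partner subunit of the proline hydroxylases, had a log2 fold of 0.25 that did not pass (adjusted p = 0.0933). Ppib, a proline isomerase of the chains, had one of 0.26 on its brightest probe set, which ends in _x_at and did not pass (adjusted p = 0.0933). The other Ppib probe set read 6220 and 5812 on the AV arrays, against 4183 and 4248 on the ventricular arrays, and was higher in the AV junction (log2 fold 0.51, adjusted p = 0.0124).

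Probe sets of the same gene agreed for some results and not for others. Of the 11 collagen genes that passed, 9 have a second tested probe set. It had the same sign in 7 of them (77.8%; 77.6% of 550 such genes over all that passed) and also passed in 4 (Col3a1, Col5a2, Col1a2 and Col18a1; 44.4%, against 23.8% over all that passed). In Col5a1, Pcolce and Col4a1 it had the same sign and did not pass, and in Col9a1 and Col6a2 it had the opposite sign and did not pass. Col9a3 and Col7a1 have no second tested probe set. Among the 14 collagen genes with 2 tested probe sets, passed or not, 8 agreed in sign (57.1%). Over all 2652 genes with a second tested probe set, passed or not, it was 63.9%.

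Collagen genes that are neighbours in the GRCm38.p6 annotation, with no protein-coding gene between them, had like log2 folds in some pairs and unlike ones in others. Col3a1 and Col5a2 were both higher in the AV junction, at 1.26 and 1.22. Col4a1 and Col4a2, whose starts lie 21 bases apart on opposite strands, had −0.40 and −0.36, of which the first passed. Col4a6 and Col4a5, 1343 bases apart at their starts, had 0.44 and 0.70, and neither passed. Col6a2 and Col6a1 had 1.29 and −0.21. Of the pairs Col9a1 and Col19a1, and Col4a4 and Col4a3, at least 1 gene was too dim to test.

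Promoter entries were found for 33 of the 46 genes, with 36 windows in all. Among the 250 bases before the start, GGGCGG or its reverse complement CCGCCC occurred in 58.3% of these windows, against 32.7% of the 32851 windows of all genes. CCAAT or ATTGG occurred in 36.1%, against 33.8% of all windows, and TATAAA or TTTATA in 16.7%, against 12.4% of all windows. Of genes that passed, the GC box was found before Col18a1, Col1a2, Col5a1, Col6a2, Col7a1 and Pcolce, which include a lower gene, and the TATA element only before Col3a1. These counts describe letters in the windows and were not tested.

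Among the 13 genes too dim to test, 5 were below background on all 4 arrays (Col4a4, Col9a2, Col10a1, Col12a1 and Col17a1). The other 8 were above background on at least 1 array, with means up to 94.4. Col26a1 read 59.6 and 129 on the AV arrays, against 80.8 and 87.9 on the ventricular arrays, and Plod1 read 110 and 91.8 on the AV arrays, against 45.9 and 102 on the ventricular arrays. Because background was higher on the ventricular arrays, an absence there allows a brighter signal than in the AV junction, and a dim reading shows only that the gene was not detectable at this sensitivity.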

How the data were processed

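The authors deposited an intensity for every probe set on each array; per the submitters' processing notes these came from MAS5, whose version is not given in the sources used here. The table holds 22690 probe sets, 64 of them controls, and 20380 carry 1 gene symbol in the platform annotation (20351 matched the GRCm38.p6 gene table by Entrez id, with 0 symbols changed). Arrays were brought to a common 2% trimmed mean of 500. Probe sets with a mean of at least 100 were kept (13403; 9223 left out). Log2(intensity + 50) was fitted with limma 3.58.1 (lmFit, eBayes with trend, total degrees of freedom 7.43) under R 4.3.3, on region alone, with Benjamini-Hochberg adjustment of p-values over those 13403. Confidence intervals are limma's at 95%. With 2 arrays a region, the smallest two-sided p of an exact permutation test is 0.333. A fold is given as "at least" where the dimmer region did not exceed, on either of its arrays, that array's brightest Bacillus subtilis control (a background chosen after seeing the data); it is then taken against that control, without the added 50. Brightness of a probe set served to choose 1 for each gene and to filter, and is no measure of a gene's level against another's. The number of arrays limits the precision.

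The genes, gene lists and alternatives were chosen with earlier results of these data known. Genes that passed, the brightest that did not in each role and those with probe sets of opposite sign, 1 of which passed, are given on every array; other values were added after they were seen. Per the file headers, the arrays shared chip lot, fluidics station and day, and each had its own fluidics module, so module and array cannot be told apart. The fit was run on simulated data with independent errors drawn from its own variance estimates. Such data cannot show whether the arrays here are repeated readings of 1 pool. Alternatives were quantile normalisation, median scaling of the tested and (added later) of all probe sets, pseudocounts of 1 and 200, no filter or a minimum of 300, eBayes without trend, the replicate letter as a block, leaving out 1 array at a time, averaging the probe sets of each gene, dropping _x_at and _s_at probe sets, and (added later) the highest mean log2 intensity. Promoter sequences and start sites are RefSeq's (GRCm38.p6). Python 3.11.15 and matplotlib 3.10.9 drew the figures.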

Additional observations from a re-analysis of the deposited data

How the results depend on the processing

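In all 11 collagen genes that passed the arrays of the regions did not overlap, so leaving out 1 array could not turn a sign. The second tested probe set alone had the opposite sign in Col9a1 (−0.57) and Col6a2 (−0.13), a check not among the alternatives. The 16 alternatives turned the sign of 0 of the 11. Of 514 values of tested collagen genes under them, 456 kept sign and side of the threshold, 29 no longer passed, 8 newly passed and 21 changed sign, all of the last in genes that had not passed. Higher collagen genes numbered 9. They numbered 5 with the probe sets of each gene averaged, 6 without trend, 7 with quantile normalisation or without a filter, 8 with a minimum of 300, 7 to 9 with 1 array left out and 12 with median scaling over all probe sets. Lower ones numbered 2, or 1 without a filter, with a minimum of 300, without trend, with the mean of probe sets and with median scaling over all probe sets (chosen, like the highest mean log2 intensity, after seeing the data), and 0 to 1 with 1 array left out. The median log2 fold of the collagen genes tested was 0.48 with a minimum of 300, 0.17 with the mean of probe sets and 0.50 with median scaling over all probe sets. Other pathway genes that were higher numbered 0 without trend, 5 with the replicate block, 6 with median scaling over all probe sets and 0 to 2 with 1 array left out, and lower ones 0 without _x_at and _s_at probe sets. Over all genes the 712 higher and 552 lower became 439 and 272 without a filter, 244 and 209 without trend, 1210 and 288 with median scaling over all probe sets, and 301 to 369 and 167 to 314 with 1 array left out. The replicate block gave 854 lower genes over all and 11 higher (Col1a1 and Col4a5 added) and 2 lower collagen genes. The deviations of arrays with the same letter correlated at r = 0.056 across probe sets. The labels do not say what the letters stand for, and whether they pair the arrays was not tested.

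Signs that turned were those of Col14a1 (0.075 with quantile normalisation, 0.083 with median scaling over all probe sets), Col15a1 (0.15, 0.14 and, with median scaling of tested probe sets, 0.030), Col16a1 (0.0094, 0.11 and 0.00076), Fmod (−0.11) and Serpinh1 (0.041) without _x_at and _s_at probe sets. With 1 array left out the log2 fold ran from −0.13 to 0.89 in Col11a1, −0.50 to 0.068 in Col11a2, −0.016 to 0.32 in Col13a1, −0.19 to 0.042 in Col14a1, −0.30 to 0.27 in Col15a1, −0.51 to 0.42 in Col16a1, −0.42 to 0.033 in Col5a3, −0.0058 to 0.28 in Lox and −0.072 to 1.83 in P4ha1. The upper ends for Col11a1 and P4ha1 are fitted values against ventricular array 1b alone, at 46.3 and 8.38, below its background of 104, and measure no size. The cause was not tested. Genes near background are limited by signal.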
